A study of Mus musculus with 6 samples.

Results

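The enzymes described here make serine from a glycolytic intermediate and pass its carbon into the folate cycle. They are the 9 genes Phgdh, Psat1, Psph, Shmt1, Shmt2, Mthfd1, Mthfd2, Mthfd1l and Aldh1l2, each found by its symbol in 1 row of a deposited table of 54532 genes. Their RNA was measured by sequencing in 6 libraries of mouse CD8 T cells, the cytotoxic T cell lineage, purified from spleen and lymph nodes and stimulated in culture through CD3 and CD28 on beads for 3 days. There were 3 libraries with the genotype label WT and 3 labelled PTPMT1 KO, and both groups had the same stimulation. The gene Ptpmt1 encodes a phosphatase of mitochondria that takes part in the synthesis of cardiolipin. The strain, sex and age of the mice are not stated in the labels. Also not stated are the way the gene was deleted, the cells in which it was deleted and whether replicates are separate animals. The p-values therefore measure the spread between these samples alone, which may in part be technical.

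As background, Phgdh, Psat1 and Psph act in sequence in the cytosol to turn 3-phosphoglycerate into serine. Serine hydroxymethyltransferases, Shmt1 in the cytosol and Shmt2 in mitochondria, split serine into glycine and a carbon unit carried on tetrahydrofolate. In mitochondria Mthfd2 oxidises this unit, Mthfd1l releases it as formate and Aldh1l2 can oxidise it to carbon dioxide, while cytosolic Mthfd1 takes up formate again for purine and thymidylate synthesis. Activated T cells are known to switch this pathway on as they begin to divide, and ATF4 and MYC are known regulators of several of its genes.

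All 9 genes had a higher mean in KO as deposited, Mthfd1l by the least and with a sign that turned when samples were rescaled to equal FPKM totals, and none reached the threshold over all genes with the 6 samples. Values are FPKM, fragments scaled to gene length and library size, so levels can be compared between genes. Differences were tested with limma on log2(FPKM + 0.5) in the 12654 genes whose mean was at least 0.5 FPKM, and a gene was called at a Benjamini-Hochberg adjusted p under 0.05. Such a fold change understates the change of low genes. The background was 0.0395% of genes called in either direction, and 0 of the 8 enzymes tested were called. At an unadjusted p under 0.05, 6 of the 8 were higher in KO and 0 lower, where 11.5% of all genes tested were higher. For 5 of the 8 each KO sample lay above each WT sample, against 14.5% of all genes tested. The median log2 fold change of the 8 was 1.08, and that of all genes tested was 0.03. Aldh1l2 was too low to pass the filter and is described by its reads.

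The libraries were not alike within groups. KO replicate 3 had a Xist level of 0 FPKM and a level of 19.6 FPKM for the Y-linked Ddx3y, which was at 0 in the other 5 libraries. A library that differs so in a Y-linked gene is not a technical repeat of the others. The summed level of 10 CD8 T cell markers in KO replicate 3 was 2175 FPKM, against 3662 to 6916 in the others, and all 10 were detected. Cd8a and Cd3e were higher in it, at 145.0 and 31.9 FPKM, than in KO replicates 1 and 2, but lower than in each WT library. The other markers of this list were lower in it than in those 2 KO libraries. Between the groups, 8 of the 10 markers had a negative log2 fold change and 2 a positive one (median -0.31). Of these 10, 0 were called. At an unadjusted limma p under 0.05, 4 were lower in KO and 0 higher, where 1297 of the 12654 genes tested were lower. Without KO replicate 3, 5 were negative and 5 positive, and 2 were called lower, where 706 of all genes were. The list of 10 neutrophil and mast cell markers summed to 86.0 FPKM in KO replicate 3 and to 8.17 to 24.8 elsewhere. Most of this sum was the mast cell and basophil genes Cpa3 and Mcpt8, at 25.9 and 43.3 FPKM against at most 7.08 and 5.82 in the others. Mpo and Elane, of neutrophil granules, were also highest there, at 5.65 and 2.20 FPKM, whereas S100a8 and S100a9, abundant in neutrophils, were at 1.76 and 0.637 FPKM, within the range of the others, and Camp and Ltf were at 0. Its summed level of 6 gamma-delta T cell markers was 119.5 FPKM, against 18.5 to 41.1. Among WT libraries replicate 3 had the highest sum of the latter markers, at 41.1 FPKM. The defining markers Cd4 and Csf1r stayed at or under 1.86 and 0.181 FPKM in every library. The list of 5 CD4 and regulatory T cell markers summed to 9.11 FPKM in KO replicate 3 and to 2.82 to 5.53 elsewhere. Of these, Zbtb7b and Ikzf4 were highest in KO replicate 3, at 5.44 and 3.11 FPKM, and Cd4, Foxp3 and Cd40lg were not. The immunoglobulin gene Ighm, listed for B cells, had 242.7 to 386.8 FPKM. The part of any of these differences in the results below was not tested. In bulk RNA, a change in the mix of cells and a change in RNA per cell cannot be told apart. The enzymes and the lists around them are also given without KO replicate 3. KO replicate 2 stood apart in other ways, with an FPKM total of 605554 against 357607 to 474629 in the other libraries. Of its reads, rebuilt from FPKM and gene length, 7.53% were in mitochondrial genes, against 2.38% to 4.76% in the others. Ptpmt1 itself was lower in each KO sample, at 3.75, 3.84 and 4.13 FPKM in WT and 1.0004, 1.58 and 1.504 in KO (log2 fold change -1.26, SE 0.198, limma adjusted p = 0.0884; 0.0344 without KO replicate 3). The removed exons are not stated in the labels.

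The stretches of 250 bases before the RefSeq start were read for 8 of the 9 genes, in 9 windows of build GRCm38.p6 because Psat1 has 2 starts. They were searched on both strands for TGATGNAA, a form of the composite element bound by ATF4 with C/EBP proteins, for the E-box CACGTG bound by MYC, for the CCAAT box and for the GC box GGGCGG, motifs of which none contains another. The composite element and the E-box were in 0 of the 9 windows, where 3.45% and 6.02% of all 32851 promoter windows of that length held them. This says only that these letters are not in these windows. CCAAT was in 6 windows, those of Phgdh, Psat1, Psph, Shmt1, Mthfd1 and Mthfd2, and in 33.8% of all windows. GGGCGG was in 5 windows, those of Psat1, Psph, Shmt1, Mthfd1 and Mthfd1l, and in 32.7% of all windows. The windows of Phgdh (chr3:98339970-98340219, minus strand), Mthfd2 (chr6:83317605-83317854, minus strand) and Mthfd1l (chr10:3972825-3973074, plus strand) are shown, because they belong to the most abundant enzyme, to a mitochondrial enzyme higher in every KO sample and to the enzyme with the smallest difference. They run from 5′ to 3′ towards the gene, and capitals mark matches to CCAAT or GGGCGG on either strand.
Phgdh: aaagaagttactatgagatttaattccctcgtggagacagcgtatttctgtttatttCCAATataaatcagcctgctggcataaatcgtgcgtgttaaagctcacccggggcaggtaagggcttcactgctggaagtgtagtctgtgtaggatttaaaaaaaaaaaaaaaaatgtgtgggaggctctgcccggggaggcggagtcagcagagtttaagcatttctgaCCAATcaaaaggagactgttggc
Mthfd2: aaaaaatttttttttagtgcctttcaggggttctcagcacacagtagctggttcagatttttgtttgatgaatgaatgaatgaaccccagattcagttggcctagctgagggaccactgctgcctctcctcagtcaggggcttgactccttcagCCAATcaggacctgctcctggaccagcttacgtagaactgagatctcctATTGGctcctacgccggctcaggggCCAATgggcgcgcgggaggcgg
Mthfd1l: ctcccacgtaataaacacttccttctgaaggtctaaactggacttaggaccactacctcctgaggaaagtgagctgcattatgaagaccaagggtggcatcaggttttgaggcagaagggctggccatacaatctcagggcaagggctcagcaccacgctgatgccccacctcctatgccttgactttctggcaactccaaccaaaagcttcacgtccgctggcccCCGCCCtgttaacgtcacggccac
The windows of Phgdh and Mthfd2 hold 2 and 3 matches to CCAAT, and that of Mthfd1l holds 0 and a single match to GGGCGG. A match is a description of the letters and not of a bound site.

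**Figure D1:**
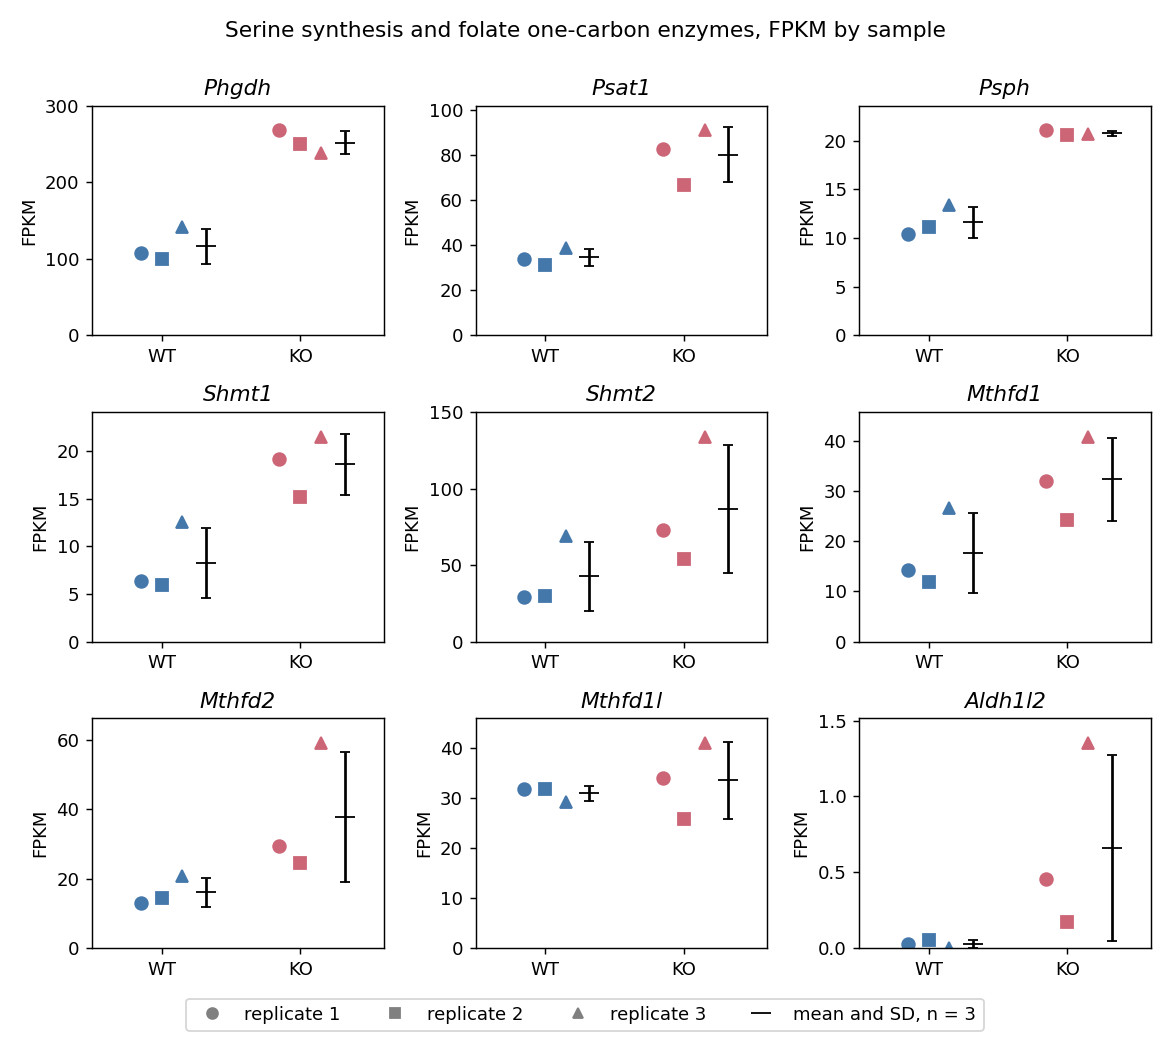
FPKM of each enzyme gene (y axes from 0, each with its own scale) in the 3 WT and 3 KO samples, with marker shape giving the replicate number and the bar giving the mean and SD of the group. Phgdh, Psat1, Psph, Shmt1, Mthfd2 and Aldh1l2 show no overlap between groups, whereas KO replicate 3 stands above the other samples for Shmt2, Mthfd2 and Aldh1l2.

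In the values as deposited, the 3 enzymes of serine synthesis differed most steadily between the groups. Phgdh (ENSMUSG00000053398, mm10 chromosome 3, 98313170 to 98339990, minus strand), the dehydrogenase that opens the pathway, had 107.7, 99.2 and 142.2 FPKM in the WT samples, in replicate order, and 268.0, 250.1 and 237.7 in the KO samples. The lowest KO value was 1.67 times the highest WT value, and the SD of the KO samples was 6.04% of their mean. Its fold change was 1.13 on the log2 scale (SE 0.202, limma adjusted p = 0.0884). Psat1 (ENSMUSG00000024640, chromosome 19, 15904678 to 15947337, minus strand), the aminotransferase of the middle step, had 34.0, 31.3 and 38.5 FPKM in WT and 82.6, 66.8 and 90.9 in KO. All KO samples were above all WT samples, and the log2 fold change of 1.19 (SE 0.183) had a limma adjusted p of 0.0884. Psph (ENSMUSG00000029446, chromosome 5, 129765558 to 129787449, minus strand), the phosphatase that releases serine, had 10.4, 11.1 and 13.4 FPKM in WT and 21.1, 20.6 and 20.7 in KO. With an SD of 1.24% of the mean, its KO values as deposited were the narrowest of the 9 genes. Its fold change was 0.82 on the log2 scale (SE 0.155, limma adjusted p = 0.0884). With samples rescaled to equal FPKM totals, the log2 fold changes of Phgdh, Psat1 and Psph were 0.86, 0.92 and 0.56. Their SEs were then 0.262, 0.314 and 0.267, with limma adjusted p of 0.191, 0.221 and 0.334. That of Shmt1 was 0.305 in the same fit. The summed level of these 3 enzymes was 141.5 to 194.2 FPKM in WT and 337.4 to 371.6 FPKM in KO.

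Without KO replicate 3, limma called these 3 enzymes higher in KO and none of the other 5 tested, where 8.12% of all genes were called higher and 13.7% in either direction. The adjusted p was 0.0344 for Phgdh, 0.0344 for Psat1 and 0.0357 for Psph, with log2 fold changes of 1.17, 1.10 and 0.82. KO replicate 3 was the lowest of the KO group for Phgdh and lay between the other KO samples for Psph. For Psat1 it was the highest of all samples. For 452 of the 4329 exon bases of Psph, 10.4%, the annotation also places Cct6a, a gene of the cytosolic chaperonin, on the opposite strand. Cct6a had 52.3, 50.2 and 69.3 FPKM in WT and 121.7, 115.6 and 116.6 in KO, and no source used here gives the strand setting of the counting. The part of shared reads in the value of Psph was not tested.

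The cytosolic and mitochondrial serine hydroxymethyltransferases were both higher on average in KO, with WT replicate 3 well above the other WT samples. Shmt1 (ENSMUSG00000020534, chromosome 11, 60788104 to 60811718, minus strand) had 6.31, 5.90 and 12.5 FPKM in WT and 19.1, 15.2 and 21.5 in KO. These groups did not overlap, although WT replicate 3 was 2.05 times the mean of the other WT samples, and the fold change was 1.19 on the log2 scale (SE 0.300, limma adjusted p = 0.113). Shmt1 shares 4.74% of its exon bases with Smcr8 on the opposite strand, a gene that was not higher in KO on average (log2 fold change -0.38, SE 0.252, limma adjusted p = 0.408). Shmt2 (ENSMUSG00000025403, chromosome 10, 127517123 to 127522444, minus strand) had 29.2, 30.1 and 69.0 FPKM in WT and 73.1, 53.8 and 134.0 in KO. Here WT replicate 3 exceeded KO replicate 2, so the groups overlapped, and KO replicate 3 was 2.11 times the mean of the other KO samples. The log2 fold change of 1.03 (SE 0.444) had an unadjusted limma p of 0.0534 and an adjusted p of 0.235. Without KO replicate 3 the log2 fold change of Shmt2 was 0.67 and the adjusted p 0.284, and that of Shmt1 was 1.08 with an adjusted p of 0.0787.

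Mthfd1 and Mthfd2, enzymes that interconvert folate-bound carbon units in the cytosol and in mitochondria, had similar levels and similar differences. Mthfd1 (ENSMUSG00000021048, chromosome 12, 76255298 to 76319803, plus strand) had 14.3, 12.0 and 26.6 FPKM in WT and 31.9, 24.3 and 40.8 in KO. WT replicate 3 lay above KO replicate 2, and the fold change was 0.91 on the log2 scale (SE 0.332, limma adjusted p = 0.183). Mthfd2 (ENSMUSG00000005667, chromosome 6, 83305691 to 83325908, minus strand) had 12.9, 14.5 and 20.8 FPKM in WT and 29.5, 24.4 and 59.2 in KO. All KO samples exceeded all WT samples, KO replicate 3 was 2.19 times the mean of the other KO samples, and the fold change was 1.13 on the log2 scale (SE 0.353, limma adjusted p = 0.150). Without KO replicate 3 it was 0.75 for Mthfd2 (adjusted p = 0.0776) and 0.73 for Mthfd1 (adjusted p = 0.195).

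Mthfd1l was the exception among the enzymes. Mthfd1l (ENSMUSG00000040675, chromosome 10, 3973118 to 4167081, plus strand), the mitochondrial ligase that releases formate, had 31.8, 31.9 and 29.3 FPKM in WT and 34.0, 25.8 and 41.1 in KO. Its KO samples lay on both sides of the WT samples. The log2 fold change of 0.09 (SE 0.201, limma adjusted p = 0.823) became -0.065 without KO replicate 3 and -0.18 with each sample rescaled to the same FPKM total. In WT the gene was the least variable of the 9, with an SD of 4.76% of the mean, and 6765 reads lay behind the WT values.

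Aldh1l2 (ENSMUSG00000020256, chromosome 10, 83487450 to 83534140, minus strand), the mitochondrial enzyme that oxidises formyl-tetrahydrofolate, was nearly absent in WT. Its whole reads, rebuilt from FPKM and gene length, were 3, 6 and 0 in WT and 54, 17 and 183 in KO. In FPKM these are 0.0244, 0.0521 and 0 in WT and 0.457, 0.173 and 1.35 in KO, so that the lowest KO sample was 3.32 times the highest WT sample. A count of 0 in WT replicate 3 allows up to 0.0228 FPKM, the level of 3 reads. Over the groups, 254 reads in KO against 9 in WT gave a ratio per fragment of 29.7 (95% exact binomial interval 15.4 to 65.6), which covers counting error only and not the spread between samples. KO replicate 3 held most of the KO reads. Without that library, an alternative added after the values were seen, 71 reads in KO gave a ratio of 13.5 (interval 6.71 to 30.7). With no filter on low values limma gave a log2 fold change of 1.01 on the log2(FPKM + 0.5) scale and an adjusted p of 0.311. On the opposite strand D10Wsu102e covers 14.1% of the Aldh1l2 exon bases, and it was at 0.477 to 0.622 FPKM in the 6 samples, with a log2 fold change of -0.00065 (SE 0.261, limma adjusted p = 0.999).

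**Figure D2:**
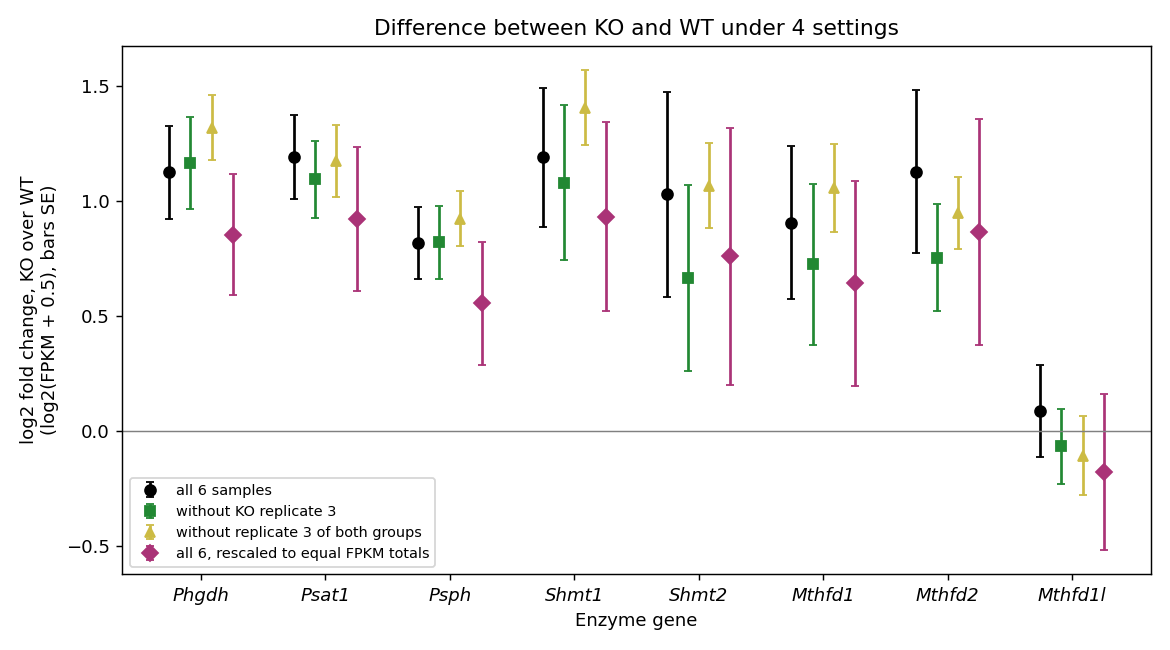
Log2 fold change of KO over WT with its SE for the 8 enzymes tested (x axis), from limma on log2(FPKM + 0.5), with marker shape and colour giving the 4 settings. The 7 enzymes other than Mthfd1l lie above 0 in each of these settings, and Mthfd1l lies at 0.09, -0.065, -0.11 and -0.18.

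The order of levels was largely kept between genotypes. In WT, Phgdh led with a mean of 116.4 ± 22.8 FPKM (SD, n = 3), followed by Shmt2 at 42.7 ± 22.7, Psat1 at 34.6 ± 3.68 and Mthfd1l at 31.0 ± 1.48. Shmt2, Psat1 and Mthfd1l overlapped as neighbours in that order. Mthfd1 at 17.6 ± 7.88, Mthfd2 at 16.0 ± 4.16, Psph at 11.6 ± 1.59 and Shmt1 at 8.24 ± 3.69 FPKM came next, each overlapping the next in range, with Aldh1l2 far below at 0.0255 ± 0.026. In KO, Phgdh again led at 251.9 ± 15.2 FPKM (SD, n = 3) and did not overlap Shmt2 at 87.0 ± 41.8. Psat1 at 80.1 ± 12.3 overlapped Shmt2 and lay above Mthfd2, which stood at 37.7 ± 18.8 FPKM. Mthfd2 had a higher KO mean than Mthfd1l, at 33.6 ± 7.66, the reverse of their order in WT, but exceeded it in 1 of 3 KO samples. Mthfd1 at 32.3 ± 8.27, Psph at 20.8 ± 0.257, Shmt1 at 18.6 ± 3.18 and Aldh1l2 at 0.660 ± 0.615 FPKM completed the KO order. The summed level of the 9 enzymes was 235.9 to 352.4 FPKM in WT and 481.0 to 647.1 in KO.

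**Figure D3:**
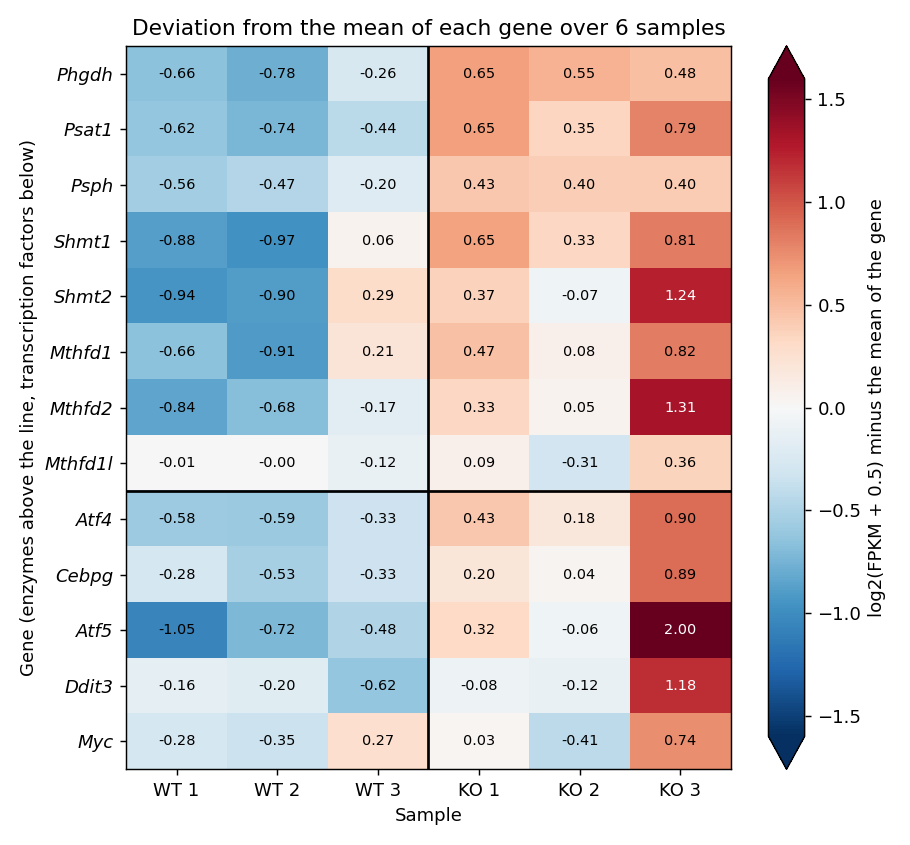
Deviation of log2(FPKM + 0.5) from the mean of each gene (colour and printed value) in the 6 samples (x axis) for the 8 enzymes tested and 5 transcription factors. WT replicate 3 is above WT replicates 1 and 2 for 7 of these enzymes, and KO replicate 3 is far above the other samples for Shmt2 (1.24) and Mthfd2 (1.31).

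Within groups, the enzymes fell into different sample patterns. KO replicate 2 was the lowest KO sample for 8 of the 9 genes, all but Phgdh, and KO replicate 3 was the highest of the 6 samples for 7 of the 9, all but Phgdh and Psph. WT replicate 3 was the highest WT sample for 7 genes, all but Mthfd1l and Aldh1l2. For Shmt1, Shmt2 and Mthfd1 it was 2.05, 2.33 and 2.03 times the mean of WT replicates 1 and 2, whereas for Psat1 and Psph it was 1.18 and 1.25 times that mean. KO replicate 3 was 2.11, 2.19 and 4.29 times the mean of the other KO samples for the mitochondrial Shmt2, Mthfd2 and Aldh1l2, and 0.918, 1.22 and 0.994 times for Phgdh, Psat1 and Psph. With replicate 3 of both groups left out, an alternative added after the values were seen, limma called 7 of the 8 enzymes higher in KO, with adjusted p between 0.0334 and 0.0403 and Mthfd1l the exception (log2 fold change -0.11, adjusted p = 0.685). In that fit 1863 of the 12654 genes were called, so calls were common outside the pathway too.

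Ratios between mitochondrial and cytosolic paralogs were taken within each sample, where the scaling of the library cancels. For Shmt2 to Shmt1 the ratios were 4.63, 5.10 and 5.52 in WT and 3.83, 3.55 and 6.24 in KO. KO samples lay below and above the WT range, and the mean log2 difference was -0.21 (exact 2-sided permutation p = 0.5). It was -0.46 without KO replicate 3, -0.11 without KO replicate 1 and -0.05 without KO replicate 2. For Mthfd2 to Mthfd1 they were 0.901, 1.21 and 0.779 in WT and 0.927, 1.01 and 1.45 in KO, with a mean log2 difference of 0.22 (exact permutation p = 0.5). Leaving out a library gave 0.03 without KO replicate 3, 0.08 without WT replicate 3, 0.35 without KO replicate 1 and 0.40 without WT replicate 2. For Mthfd1l to Mthfd1 they were 2.22, 2.67 and 1.10 in WT and 1.07, 1.06 and 1.01 in KO. All 3 KO values were lower than all WT values, though WT replicate 3 lay close to them, and the mean log2 difference was -0.84 (-0.81 without KO replicate 3). The exact permutation p was 0.1, the lowest possible with 3 samples against 3, and 0.3 after Benjamini-Hochberg adjustment over the 3 ratios.

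**Figure D4:**
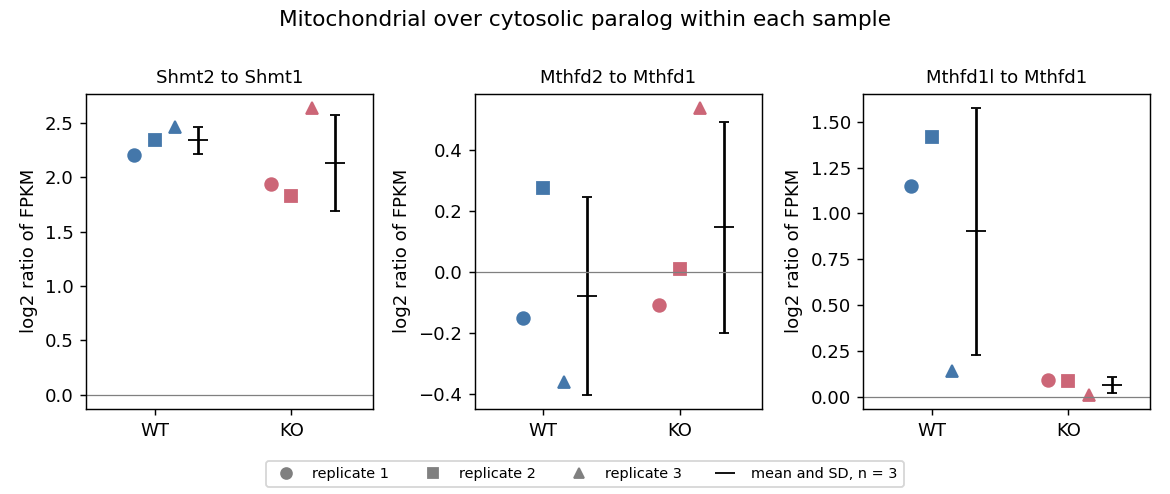
Log2 ratio of the FPKM of a mitochondrial enzyme to that of its cytosolic paralog in each WT and KO sample (marker shape gives the replicate, bar the mean and SD), with each panel on its own y axis. Only the Mthfd1l to Mthfd1 ratio separates the groups among these 3 ratios, and its WT replicate 3, at 0.14, sits near the KO samples, at 0.01 to 0.09.

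Genes around the enzymes were read from lists of the same pathway. Genes outside the 2 most abundant of each list were named after their values were seen. Among 8 genes of folate uptake and activation, 5 were tested, 0 were called, and 5 had a positive log2 fold change (median 0.81). At an unadjusted limma p under 0.05, 3 were higher, where 11.5% of all genes tested were higher. The folate carrier gene Slc19a1 had 3.52 to 5.65 FPKM in WT and 7.73 to 11.6 in KO, and Fpgs, which adds the glutamate tail that keeps folate in the cell, had 3.41, 3.48 and 4.85 in WT and 7.57, 6.89 and 8.31 in KO. Both were higher in KO without overlap, as were 14.5% of all genes tested, and both had a limma adjusted p of 0.0970. Ggh, which removes glutamates from folate, had a log2 fold change of 0.16, which was -0.10 with samples rescaled to equal totals. Without KO replicate 3, 4 of these 5 genes were called higher in KO, among them Slc25a32, Slc19a1 and Fpgs. In that fit 8.12% of all genes were called higher.

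Other folate-dependent enzymes were mixed. Of 13 listed, 9 were tested, 0 were called, 6 had a positive and 3 a negative log2 fold change (4 and 5 rescaled to equal totals), and the median was 0.12. Gart of purine synthesis had 15.6, 13.1 and 26.4 FPKM in WT and 34.2, 26.8 and 43.8 in KO, and Tyms, the thymidylate synthase, had 17.3, 12.7 and 17.2 in WT and 30.9, 43.2 and 19.8 in KO. For both, every KO sample lay above the WT samples, as for 14.5% of all genes tested, with limma adjusted p of 0.153 and 0.156. The methionine cycle enzyme Mtr, which uses methyl-folate, had a log2 fold change of 0.00 (SE 0.271). Aldh1l1, the cytosolic counterpart of Aldh1l2, had 0.703, 0.764 and 1.26 FPKM in WT and 0.225, 0.304 and 0.245 in KO. Its values were lower in each KO sample, but it passed the filter on low values through the WT samples and is 1 of the 3 negative genes, so its fold change is not read as a test. Mthfd2l, the paralog of Mthfd2, stayed at 0.566 to 1.40 FPKM over the 6 samples. Tyms was the member of this list called higher without KO replicate 3, where 8.12% of all genes were called higher.

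The glycine cleavage system, which feeds carbon units from glycine, was incomplete at the RNA level. Gldc, its decarboxylase, was at 0 in 5 samples and at 0.0443 FPKM in KO replicate 3. Gcsh, its carrier protein, had 8.43, 8.99 and 13.2 FPKM in WT and 27.4, 23.5 and 20.2 in KO (log2 fold change 1.19, SE 0.219, limma adjusted p = 0.0884). Dld, a subunit shared with the pyruvate dehydrogenase complex, had 40.8, 33.6 and 32.2 FPKM in WT and 61.9, 86.8 and 38.0 in KO. Amt, the aminomethyltransferase, had 0.902, 0.748 and 0.654 FPKM in WT and 0.730, 0.156 and 0.5002 in KO, and passed the filter through the WT samples. Of the 4 genes, 3 were tested and 0 called, with 2 positive and 1 negative log2 fold change. Gcsh and Dld were called higher without KO replicate 3, where 8.12% of all genes were called higher.

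Genes of serine and glycine transport and use showed little common direction. Of 20 listed, 16 were tested, 0 were called, 11 had a positive and 5 a negative log2 fold change (6 and 10 rescaled to equal totals), and the median was 0.06. With KO replicate 3 left out, 8 were positive and 8 negative and 0 were called. The most abundant were Slc1a5, a transporter of neutral amino acids, with a log2 fold change of 0.23 (SE 0.250, limma adjusted p = 0.628), and Sars, the cytosolic seryl-tRNA synthetase, with 0.36 (SE 0.271, adjusted p = 0.466). Rescaling to equal totals turned Slc1a5 to -0.04. Slc1a4, a serine and alanine transporter, had 0.342, 0.464 and 0.783 FPKM in WT and 2.14, 0.699 and 6.94 in KO, and the glycine transporter gene Slc6a9 had 0.0356, 0.0633 and 0.222 in WT and 0.914, 0.267 and 3.55 in KO. In both, KO replicate 3 was the highest KO sample and replicate 2 the lowest. That order was common, and was also that of Slc1a5, Sars and all the enzymes but Phgdh and Psph. Slc6a9 passed the filter on low values through the KO samples. Sfxn1, a mitochondrial serine transporter, had 6.41, 6.31 and 9.69 FPKM in WT and 12.9, 12.0 and 11.4 in KO (log2 fold change 0.69, SE 0.199, limma adjusted p = 0.133).

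**Figure D5:**
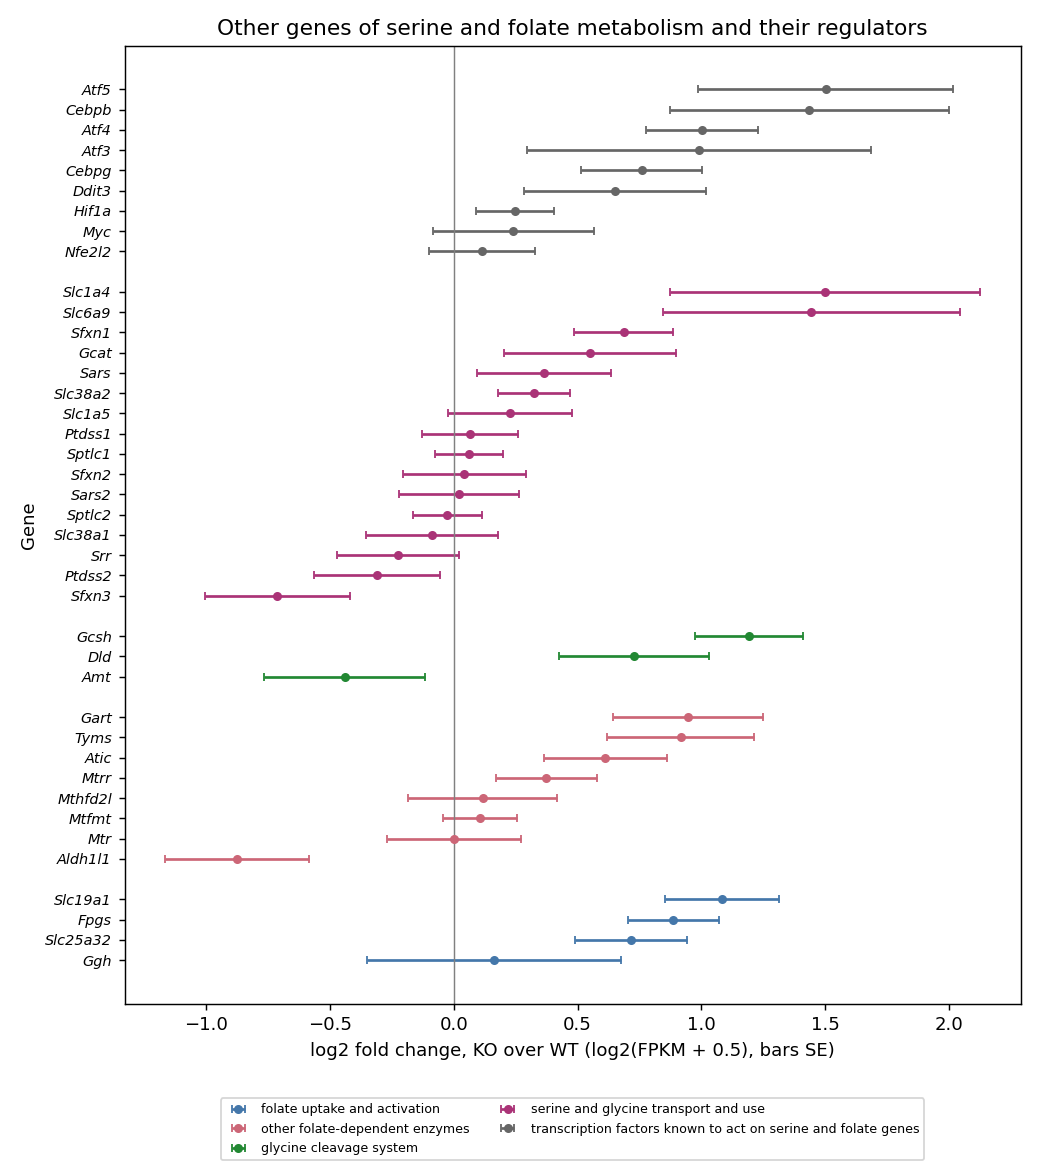
Log2 fold change of KO over WT with its SE (x axis) for tested genes of 5 lists around the enzymes, without those not reported by name (y axis, coloured by list), from limma on log2(FPKM + 0.5) in all 6 samples. Folate uptake genes and the transcription factors lie above 0 (Ggh and 3 of 9 factors fell below 0 when samples were rescaled to equal totals), whereas genes of serine and glycine transport and use lie on both sides, from Sfxn3 at -0.71 to Slc1a4 at 1.499.

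Of 10 transcription factors known to act on serine and folate genes, 9 were tested, 0 were called and 9 had a positive log2 fold change (median 0.76). Rescaled to equal totals, 6 of the 9 were positive. Without KO replicate 3 the median was 0.22, with 8 positive, 1 negative and 1 called higher, where 8.12% of all genes were called higher. Atf3 passed the filter through the KO samples. Atf4, the factor of the amino acid response, had 56.1, 55.6 and 66.5 FPKM in WT and 113.0, 95.3 and 157.0 in KO. Its groups did not overlap, the fold change was 1.002 on the log2 scale (SE 0.225, limma adjusted p = 0.105), and it was called without KO replicate 3 (0.80, adjusted p = 0.0375). Atf5 had 3.06, 3.99 and 4.80 FPKM in WT and 8.70, 6.58 and 29.1 in KO, again with KO replicate 3 far above the rest. Myc had 28.2, 26.9 and 41.6 FPKM in WT and 35.2, 25.7 and 57.8 in KO, so its groups overlapped (log2 fold change 0.24, SE 0.324, limma adjusted p = 0.699), and it was -0.07 with KO replicate 3 left out and -0.03 after rescaling. Among the 9 factors tested, WT replicate 3 had the highest Myc, Atf4, Atf5, Atf3 and Cebpb of its group. It had the lowest Hif1a, Nfe2l2 and Ddit3 of its group, and its Cebpg lay between the others. A link of these levels to those of the enzymes was not tested. Hif1a had a log2 fold change of 0.25 (SE 0.157, adjusted p = 0.393), which was -0.02 rescaled to equal totals. Proliferation genes, a list kept as a check because folate enzymes serve DNA synthesis, summed to 1148 to 1233 FPKM in WT and to 1633, 1714 and 1149 in KO replicates 1 to 3. Of its 16 genes, 0 were called, and the median log2 fold change was 0.22 (-0.05 rescaled to equal totals). With KO replicate 3 left out, 4 of the 16 were called higher and 0 lower, where 8.12% of all genes were called higher. KO replicate 3 had the lowest sum of the KO samples, but the genes of this list went both ways. Pcna had 496.2, 735.2 and 267.9 FPKM in KO replicates 1 to 3. For Mcm2, Mcm3, Plk1 and Aurka, KO replicate 3 was the highest KO sample, and for the others it was not. The part of proliferation in the enzyme levels was not tested. Top2a had a log2 fold change of -0.03 (SE 0.201) and Pcna 0.65 (SE 0.374).

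The genes whose profile over the 6 samples was nearest to the mean profile of the 8 enzymes tested were Prmt7, Utp4, Dolk, Gars and Rcl1, out of 9398 candidates with a mean FPKM of at least 1. Likeness was the root mean square difference between log2 profiles centred on each gene, which was 0.069 for Prmt7, 0.080 for Utp4, 0.084 for Dolk, 0.087 for Gars and 0.087 for Rcl1. Among the enzymes themselves this difference from their own mean was 0.158 for Mthfd1, 0.302 for Shmt2 and 0.485 for Mthfd1l. Gars, the glycyl-tRNA synthetase, had 38.4, 39.6 and 49.3 FPKM in WT and 81.0, 67.9 and 100.9 in KO. Prmt7, a protein arginine methyltransferase, had 4.02, 3.83 and 6.81 FPKM in WT and 10.1, 8.02 and 11.4 in KO.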

How the data were processed

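RNA of 3 WT and 3 KO samples was sequenced. The authors deposited 1 table with FPKM per gene and sample and a gene length in bases. A stranded mRNA kit was used for the libraries, per the labels' protocols. The build mm10 and the tools featureCounts 1.5.0-p3, HISAT2 2.0.5, DESeq2 and Trim Galore are named without role or order, per the submitters' processing notes; the annotation release, the strand setting and the handling of reads with several matches were not given in the sources used here. The product of FPKM and gene length was a whole multiple of a single step per sample (tolerance 0.05) for at least 99.99% of values above 0. Reads rebuilt from these steps summed to 14932604 to 16819913 per sample. Depth limits precision for Aldh1l2, whose interval and floor cover counting error only.

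Genes averaging at least 0.5 FPKM were analysed in limma 3.58.1 (R 4.3.3; lmFit, eBayes with trend, 2-sided, genotype as the only term). Named were the 9 enzymes, the 2 genes of highest FPKM per list where none was called, Ptpmt1 and the 5 nearest profiles, without ribosomal protein genes, receptor segments, pseudogenes and predicted genes. Some genes of the lists entered the counts and are not reported here by name. The enzymes and lists were chosen with earlier results of these data known. Coordinates are those of GENCODE M21 (mm10), counted from 1, and promoters are from RefSeq (GRCm38.p6). The limma step was tested on simulated data. Alternatives covered pseudocount, filter, scaling, variance model, array weights, replicate block, limma-voom on rebuilt reads and left-out samples. Other steps used scipy 1.17.1, pandas 2.3.3 and matplotlib 3.10.9 in Python 3.11.15.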

Additional observations from a re-analysis of the deposited data

How the results depend on the processing

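The 7 enzymes tested other than Mthfd1l kept a positive log2 fold change in all 126 values from 18 alternatives, from 0.56 to 1.52. The alternatives of filter, variance model and replicate block leave the fold change of a gene unchanged by construction. Their values repeat those of the main fit and are no check of the sign. The median over the 8 enzymes stayed between 0.79 and 1.28. Rescaling to equal FPKM totals moved the median of all genes from 0.03 to -0.20 and the share of enzymes at an unadjusted p under 0.05 from 6 to 2 of 8; over all genes it changed 1459 higher and 1297 lower to 485 and 1630. Mthfd1l ranged from -0.065 to 0.27 with a single sample left out (without KO replicate 3 and without KO replicate 2), and was negative when rescaled (-0.18) and without replicate 3 of both groups (-0.11); the cause was not tested.

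The count of called genes, 5 in all 6 samples, was 3 with a pseudocount of 1, 3 with no filter, 14 without trend, 12 with the replicate block and 1 with limma-voom on rebuilt reads. It ranged from 2 to 1733 when a single sample was left out, the latter without KO replicate 3, and was 1863 without replicate 3 of both groups. Called enzymes, 0 in all 6 samples, ranged from 0 to 3 with a sample left out, were 7 without replicate 3 of both groups and 0 with the replicate block. Called genes of the pathway and proliferation lists, 0 in all 6 samples, ranged from 0 to 12 and were 13. Array weights called 7200 genes, 7 enzymes and 32 list genes, with a weight of 36.4 for KO replicate 1 and 0.154 to 1.51 for the others; the estimate of these weights stopped before it converged.

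Same-numbered WT and KO samples had deviations from their group means that correlated at 0.13, 0.067 and 0.33 across genes. The last was the highest of all combinations, whereas WT replicate 1 correlated best with KO replicate 2 (0.267). The labels give a shared number only, and the samples were not treated as pairs. With the replicate block the SE was 0.193 for Shmt2, against 0.444 without it, and 0.186 for Mthfd1, against 0.332. Their limma adjusted p was then 0.0994 and 0.106. The SE was also smaller for Shmt1, Mthfd2 and Psat1 and larger for Phgdh, Psph and Mthfd1l. With the replicate block as a pairing, which leaves the mean differences of the 3 ratios at -0.21, 0.22 and -0.84 by construction, the exact permutation p was 0.5, 0.75 and 0.25, against 0.5, 0.5 and 0.1 without it; 0.25 is the smallest p that 3 pairs allow.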
